A study of Prunus persica with 24 samples.

Results

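Among 26873 peach gene identifiers, 91 differed between flesh stored at 35 °C and at 25 °C past set limits only after day 3. Of these, 43 were higher and 48 lower at 35 °C. They were chosen by their values: on days 1, 2 and 3 the levels at 35 and 25 °C differed by less than 0.5, on days 5, 6 and 7 the difference kept one sign, and its mean over those late days was at least 0.8 in size. All differences are on the scale of log2(FPKM + 1), at 35 °C minus 25 °C on the same day, where 1 unit is a doubling for genes well above 1 FPKM. FPKM is the number of sequenced fragments per kilobase of a transcript, scaled to the mapped fragments of the library. Because the rule used all 12 columns of values, the differences themselves are a description and carry no test. The rule allows smaller differences on the early days, and most of the genes had them. With an early limit of 0.25 in place of 0.5, 5 higher and 6 lower genes remained.

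Peach (Prunus persica) fruit was harvested, kept at 5 °C for 2 days and then stored in 2 random groups, at 35 °C (the high temperature) or at 25 °C (the common one). Flesh was sampled on days 1, 2, 3, 5, 6 and 7 at each temperature. The labels list 24 libraries, 2 for each of the 12 combinations, made from total RNA after removal of ribosomal RNA. The files hold 1 FPKM value per gene for each combination, standing for both libraries, so no spread between replicates can be given for any value below. The labels do not say how many fruit went into a library, and no cultivar is given in the sources used here.

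Peach is a climacteric fruit: after harvest it produces a burst of ethylene, and ethylene drives softening, loss of acidity and the build-up of aroma and colour. Warm storage speeds ripening up to a point, whereas heat well above room temperature is known to hold back ethylene production and softening in many climacteric fruits while inducing chaperones. Over several days of storage ripening passes into senescence, in which cell walls, membranes and proteins of the flesh are broken down.

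The files give gene identifiers without names or descriptions, and 0 of the identifiers matched the RefSeq gene table used here. No role is therefore given to any gene, no defining marker of flesh could be checked, and no sequence is shown.

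A difference that passed the limits of the rule only late was uncommon among genes that differed late. Of 15435 identifiers with at least 1 FPKM in at least 2 columns, 863 (5.59%) were higher and 771 (5.00%) lower at 35 °C by the late part of the rule, and 31.0% met the early part. All 43 higher genes and 47 of the 48 lower genes passed this filter. They made up 4.98% of the 863 and 6.10% of the 771. The remaining 820 higher and 724 lower genes had already differed by 0.5 or more on at least 1 early day. Of these, 812 higher and 707 lower genes did so on day 2 or day 3. On day 2, 691 of the higher genes were past 0.5 in the late direction and 33 in the opposite one, and on day 3 the numbers were 706 and 16. Among the lower genes they were 499 and 44 on day 2, and 606 and 14 on day 3.

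The differences of the 91 genes were also smaller than those of the others. The median late difference was 0.91 in the 43 higher genes and 1.09 in the other 820. It was -1.002 in the 48 lower genes and -1.14 in the other 724. In the higher genes it ranged from 0.81 to 1.83, and 13 of 43 reached 1. In the lower genes it ranged from -2.03 to -0.81, and 25 of 48 were at -1 or below. The limit of 0.8 cut through a continuous range: Prupe.6G178800 at 0.806 and Prupe.4G018300 at 0.809 were just inside, and Prupe.8G069800 at 0.798 and Prupe.1G195900 at 0.794 just outside. On the lower side, Prupe.6G070800 at -0.805 and Prupe.6G251600 at -0.806 were inside, and Prupe.7G227100 at -0.796 and Prupe.1G404300 at -0.792 outside.

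Among higher genes the median gap widened between day 3 and day 6. Their median difference was 0.13, 0.17 and 0.15 on the early days, then 0.60, 1.11 and 1.08 on the late days. On day 5, 17 of the 43 were still under 0.5. Over the 3 late days, a difference of at least 1 was reached by 13, 24 and 25 genes. Single genes differed most on day 5 in 10 cases, whereas day 6 was the largest in 18 and day 7 in 15. Medians over all filtered genes were 0.04, 0.19, -0.01, 0.05, 0.07 and 0.05 on the 6 days. The early limit thus lay off centre on day 2. The late limit of the rule set the mean late difference of each higher gene above these medians in advance. Nothing is therefore read from the gap between the higher genes and the median gene on the late days.

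Among lower genes the median was already off 0 on day 3. It was -0.07, -0.10 and -0.35 on the early days, and by day 3 only 6 of the 48 genes were above 0 difference. On the late days it was -0.82, -1.09 and -1.18. On day 5, 6 of the 48 were still within 0.5, against 17 of 43 among the higher genes. Differences of -1 or below were found in 16, 29 and 28 genes over the 3 late days. Day 7 held the largest difference of 22 genes, day 6 that of 17 and day 5 that of 9. A gap that widened from day 5 through day 6 to day 7 was found in 14 lower and 13 higher genes.

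**Figure D1:**
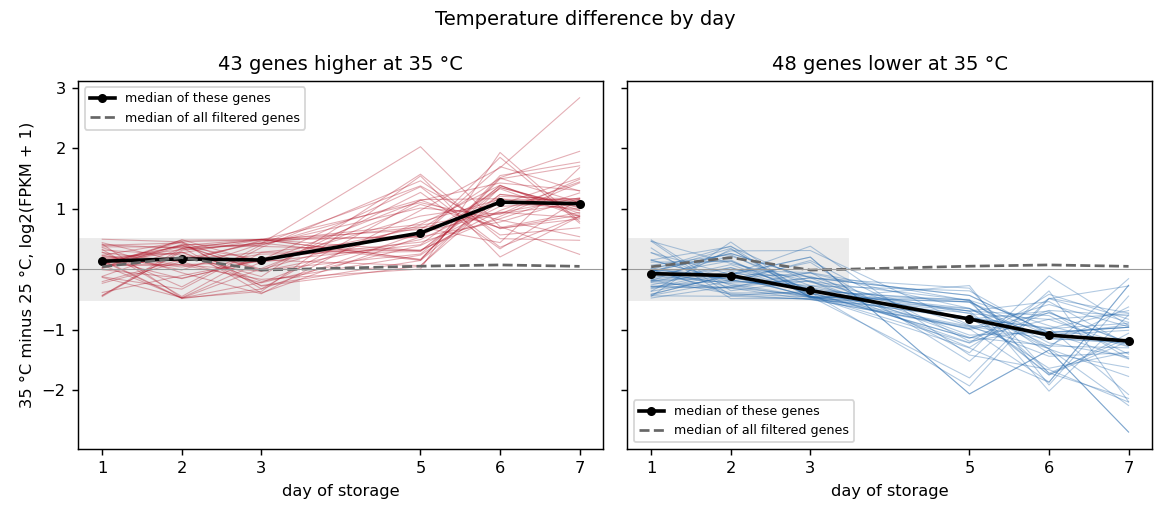
Difference between 35 and 25 °C, in log2(FPKM + 1), against day of storage for the 43 higher genes (left) and the 48 lower genes (right). Thin lines are genes, the black line is their median, the dashed line is the median of all 15435 filtered genes and the grey box marks the early limit of 0.5. The median of the higher genes stood at 0.15 on day 3 and 1.11 on day 6, and that of the lower genes at -0.35 on day 3 and -1.18 on day 7.

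The rule fixed the difference between the temperatures but not which temperature departed from its own early level. In the median gene of both directions the late level lay closer to its early level at 35 °C than at 25 °C, an order that some settings turned. In the higher genes, the mean of days 5 to 7 minus that of days 1 to 3 had a median of 0.27 at 35 °C and -0.60 at 25 °C. In the lower genes the medians were -0.33 at 35 °C and 0.53 at 25 °C. Over all filtered genes they were -0.03 at 35 °C and -0.02 at 25 °C. After quantile normalization the higher genes had 0.38 at 35 °C and -0.36 at 25 °C. The lower genes had -0.45 at 35 °C and 0.36 at 25 °C where the mean was at least 5 FPKM. Without day 3 they had -0.51 at 35 °C and 0.40 at 25 °C, and without day 2 they had -0.40 at 35 °C and 0.40 at 25 °C. The departure was larger in size at 25 °C in 31 of the 43 higher genes (72.1%) and 30 of the 48 lower genes (62.5%), beside 55.8% of all filtered genes, to which the share of the lower genes was close. These columns also served the rule, so the values describe the genes and are not tested.

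Counting a departure of 0.5 or more, 7 of the higher genes departed upwards at 35 °C alone, with the 25 °C level within 0.5 (3.32% of all filtered genes). A downward departure at 25 °C alone, with 35 °C within 0.5, was found in 20 genes (6.93% of all). In 6 genes both temperatures were lower late, more so at 25 °C (8.44% of all), and in 10 neither departed by 0.5 (69.5% of all). The rule, which asks for a late difference of 0.8, bears on these classes, so nothing is read from the gaps to the shares over all genes. The smaller number at 35 °C depended on the scaling and on the early days. Departures at 35 °C alone numbered 13, against 10 at 25 °C alone, after quantile normalization, 37 against 37 without day 2 and 38 against 31 without day 3. Of the lower genes, 14 departed downwards at 35 °C alone (5.02% of all) and 23 upwards at 25 °C alone (4.43% of all). A further 7 had no departure of 0.5, and in 4 both temperatures departed the same way, downwards in 2 and upwards in 2 (8.44% and 1.84% of all). Without day 3 the order turned, with 61 genes departing at 35 °C alone and 54 at 25 °C alone, and among genes averaging at least 5 FPKM both numbers were 11.

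**Figure D2:**
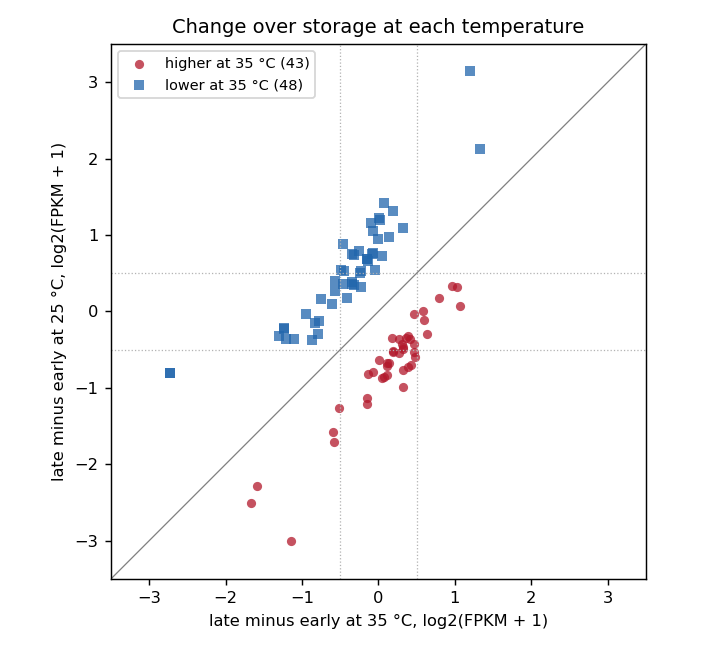
Late minus early level at 35 °C (x axis) and at 25 °C (y axis), in log2(FPKM + 1), for each of the 43 higher genes (circles) and 48 lower genes (squares). Dotted lines mark 0.5 in size and the diagonal marks equal change; the rule itself keeps the 2 sets on opposite sides of the diagonal. The higher genes centre on 0.27 at 35 °C and -0.60 at 25 °C, the lower ones on -0.33 at 35 °C and 0.53 at 25 °C.

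Set against day 1 alone, the other late-differing genes had in the median their larger departure at 35 °C. The median difference on day 1 was 0.04 in the other higher genes and -0.16 in the other lower genes. Not all of them lay close together then. Past 0.5 on day 1 were 102 higher genes in the late direction and 77 in the opposite one. Among the other lower genes these numbers were 177 and 61. The 820 other higher genes had a median change from day 1 to the late mean of 0.76 at 35 °C and -0.27 at 25 °C. For the 43 higher genes these were 0.33 at 35 °C and -0.52 at 25 °C. The 724 other lower genes had medians of -0.82 at 35 °C and 0.24 at 25 °C, and the 48 lower genes had -0.40 at 35 °C and 0.45 at 25 °C. Genes are not replicates and the same columns chose them, so these differences between sets were not tested.

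Step by step, the median higher gene had a change from day 3 to day 5 of 0.16 at 35 °C and -0.35 at 25 °C. From day 5 to day 6 the medians were 0.26 at 35 °C and -0.25 at 25 °C, and from day 6 to day 7 they were -0.02 at 35 °C and -0.08 at 25 °C. In lower genes the step from day 3 to day 5 had a median of -0.23 at 35 °C and 0.29 at 25 °C. At 35 °C the later steps had medians of -0.02 and 0.18, and at 25 °C of 0.21 and 0.31. Levels of the lower genes at 25 °C thus stood higher at each later sampling in the median, whereas the higher genes reached their late level at both temperatures by day 6.

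**Figure D3:**
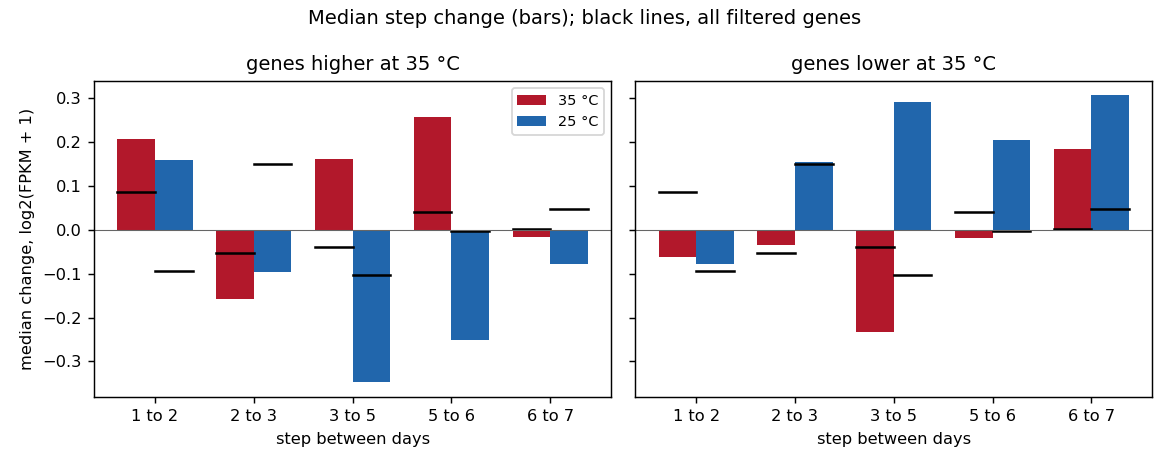
Median change between successive sampling days, in log2(FPKM + 1), at 35 °C (left bar of each pair) and 25 °C (right bar), for the 43 higher genes (left panel) and 48 lower genes (right panel). Black lines give the median of all filtered genes. In the step from day 3 to day 5 the bars point apart in both panels, at 0.16 for 35 °C and -0.35 for 25 °C in the higher genes and at -0.23 for 35 °C and 0.29 for 25 °C in the lower genes.

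At 25 °C, all 3 late values lay below all 3 early values in 24 of the 43 higher genes (11.2% of all filtered genes), and in 0 of them all late values lay above (5.12% of all). At 35 °C the late values lay above the early ones without overlap in 11 higher genes (4.53% of all) and below them in 2 (9.03% of all). Of the 48 lower genes, 16 had late values below all early values at 35 °C and 1 had them above. At 25 °C, 19 lower genes had late values above all early values and 0 had them below. Late values above at 35 °C and below at 25 °C, without overlap, were found in 4 higher genes (0.0648% of all), and the reverse in 3 lower genes (0.188% of all). Since members were picked on these columns, nothing is read from the gap to the shares over all genes.

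The largest late difference among the higher genes was that of Prupe.8G107600, a transcript with a shared early peak. At 35 °C it stood at 11.8, 50.1 and 24.3 FPKM on days 1, 2 and 3 and at 13.7, 8.23 and 10.4 FPKM on days 5, 6 and 7. At 25 °C it stood at 8.96, 52.2 and 32.5 FPKM on the early days and at 6.48, 1.89 and 0.599 FPKM on the late ones. Both temperatures peaked on day 2 at nearly one level. Afterwards the 35 °C level settled near its day 1 value, while the 25 °C level was lower on each later sampling. Late means were 10.8 FPKM at 35 °C, against 2.99 FPKM at 25 °C, with a late difference of 1.83.

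Prupe.8G221000 had opposite courses. Its levels at 35 °C were 5.21, 8.08 and 7.13 FPKM on days 1 to 3 and 9.47, 10.8 and 9.05 FPKM on days 5 to 7. Its levels at 25 °C were 5.08, 5.47 and 6.53 FPKM, then 3.76, 3.39 and 3.08 FPKM. Every late value at 35 °C exceeded every early one, every late value at 25 °C was under every early one, and the late difference was 1.29. Prupe.8G096200 was similar on day 6 and day 7, with 5.30, 10.5 and 8.50 FPKM on the late days at 35 °C, against 3.33, 2.55 and 2.88 FPKM at 25 °C. Its early values overlapped, at 4.39, 8.25 and 6.04 FPKM at 35 °C and 5.20, 7.26 and 4.79 FPKM at 25 °C.

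Prupe.7G255000 stood apart on day 6 and day 7, not yet on day 5. Late levels at 35 °C were 76.3, 78.7 and 109 FPKM, and at 25 °C they were 68.3, 26.9 and 27.5 FPKM. On the early days it stood at 47.6, 73.7 and 94.6 FPKM at 35 °C and at 40.4, 53.5 and 67.0 FPKM at 25 °C. Differences of 0.45 and 0.49 on days 2 and 3, just inside the early limit, were followed by 0.16 on day 5 and by 1.51 and 1.95 on days 6 and 7.

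**Figure D4:**
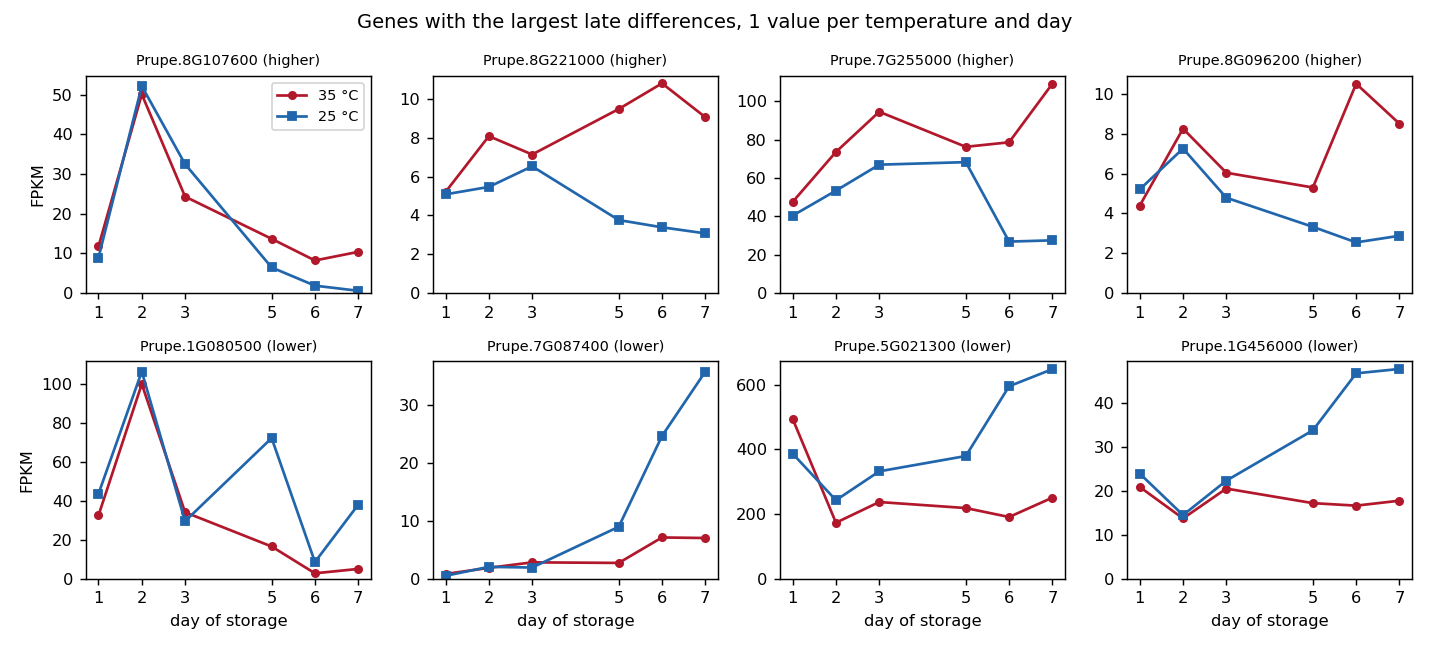
FPKM against day of storage at 35 °C (circles) and 25 °C (squares) for the 4 higher genes (top) and 4 lower genes (bottom) with the largest late differences among genes of at least 5 FPKM; each point is the 1 deposited value for a temperature and day. In Prupe.8G107600 both lines peak on day 2, at 50.1 FPKM for 35 °C and 52.2 FPKM for 25 °C, and in Prupe.7G087400 the 25 °C line reaches 35.8 FPKM on day 7.

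The most abundant of the 91 genes were Prupe.6G077900 and Prupe.6G077800, whose identifiers follow each other. Prupe.6G077900 had 2626, 4295 and 4863 FPKM on the early days and 3309, 4119 and 2960 FPKM on the late days at 35 °C. At 25 °C it had 3551, 3372 and 3454 FPKM early, then 2951, 1463 and 904 FPKM. Its late mean was 3463 FPKM at 35 °C, against 1773 FPKM at 25 °C. Prupe.6G077800 ran alongside it in all 12 columns, at between 0.792 and 0.882 times its level, with late means of 2881 FPKM at 35 °C, against 1466 FPKM at 25 °C. In both, the 25 °C level was low on days 6 and 7 only. Neighbouring copies can share reads, so the 2 may not be independent measurements.

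Among the 7 higher genes whose departure was at 35 °C alone, Prupe.8G096400 had the largest late difference, 1.14. At 35 °C it stood at 646, 831 and 1310 FPKM early and at 1654, 1938 and 2043 FPKM late. At 25 °C it stood at 530.1, 1016 and 989 FPKM early and at 819, 1032 and 728 FPKM late. The 35 °C values were thus higher at every later sampling, while late and early values overlapped at 25 °C. It lies 2 identifiers from Prupe.8G096200, whose level was at most 0.00993 times as high. Prupe.7G161600 followed, with 11.5, 18.5 and 13.5 FPKM late at 35 °C and 7.58, 4.40 and 7.55 FPKM at 25 °C. Its early levels were 5.77, 10.8 and 10.8 FPKM at 35 °C and 6.95, 9.83 and 7.49 FPKM at 25 °C.

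In the 6 higher genes with lower late levels at both temperatures, the late minus early change was smaller in size at 35 °C than at 25 °C. The course from day to day was not shared in all of them. Prupe.8G144000 stood at 19.5 FPKM on day 3 and 40.5 FPKM on day 5 at 35 °C. At 25 °C it stood at 17.4 and 15.1 FPKM on those days. Prupe.1G372000 had 14.3, 13.8 and 12.2 FPKM early and 7.55, 9.41 and 10.4 FPKM late at 35 °C, against 13.6, 9.62 and 8.37 FPKM early and 4.43, 2.66 and 4.30 FPKM late at 25 °C. Late minus early was -0.52 at 35 °C and -1.26 at 25 °C. Over these 6 genes it lay between -1.67 and -0.52 at 35 °C and between -3.002 and -1.26 at 25 °C.

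Of the 10 higher genes with no departure of 0.5, Prupe.7G255000 and Prupe.8G248100 had the largest late differences. Prupe.8G248100 stood at 14.4, 14.7 and 14.2 FPKM early and 18.7, 18.9 and 18.8 FPKM late at 35 °C. At 25 °C it stood at 10.6, 11.3 and 10.5 FPKM early and 7.85, 7.87 and 9.08 FPKM late. The temperatures already differed by 0.35 to 0.41 on days 1 to 3, just under the early limit, so for this gene the gap widened late but did not begin there.

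The largest late difference among lower genes was that of Prupe.1G080500. At 35 °C it stood at 32.6, 100.2 and 34.2 FPKM on days 1 to 3 and at 16.6, 2.82 and 5.07 FPKM on days 5 to 7. At 25 °C it stood at 43.7, 107 and 29.6 FPKM, then 72.4, 8.62 and 38.1 FPKM. As in Prupe.8G107600, both temperatures peaked on day 2, but here the 35 °C level was the one that ended lower. The late difference was -2.03, and the late values at 25 °C were spread from 8.62 to 72.4 FPKM. Prupe.1G080600 had the same value in every column, which can occur where reads are shared between copies, and counts as the same measurement. The pair Prupe.5G136100 and Prupe.5G136300 was identical too, so the 48 lower genes stand for 46 measurements.

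Prupe.7G087400 had higher late levels at both temperatures, and much more so at 25 °C. It had 0.832, 1.88 and 2.84 FPKM early and 2.74, 7.14 and 7.04 FPKM late at 35 °C. At 25 °C it had 0.514, 2.06 and 1.95 FPKM early and 8.98, 24.7 and 35.8 FPKM late. Levels up to day 3 were low and overlapping, and the late means were 5.64 FPKM at 35 °C, against 23.1 FPKM at 25 °C. Prupe.1G043000 also had higher late levels at both temperatures. Its late values were 0.738, 1.65 and 3.30 FPKM at 35 °C and 1.86, 7.90 and 7.95 FPKM at 25 °C. On days 1 and 2 it was listed at 0 at 35 °C and stood at 0.223 and 0.240 FPKM at 25 °C, and on day 3 it had 0.267 FPKM at 35 °C and 0.790 FPKM at 25 °C. Its early differences were -0.29, -0.31 and -0.499, the last just inside the limit. For Prupe.1G043000 the gap thus widened late but did not begin there.

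The largest class, 23 lower genes with a departure at 25 °C alone, was led among genes of at least 5 FPKM by Prupe.5G021300 and Prupe.1G456000. Prupe.5G021300 was also the most abundant lower gene. At 35 °C it had 494, 173 and 237 FPKM early and 219, 191 and 250.9 FPKM late, and at 25 °C 387, 243 and 332 FPKM early and 379.6, 595 and 648 FPKM late. Its neighbour Prupe.5G021200 ran at 0.673 to 0.827 times that level in every column. Prupe.1G456000 stayed near one level at 35 °C, with 20.9, 13.8 and 20.6 FPKM early and 17.2, 16.7 and 17.8 FPKM late. At 25 °C it stood at 23.99, 14.5 and 22.4 FPKM early and at 33.9, 46.9 and 47.9 FPKM late, so that all late values lay above all early ones.

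Several members of this class were near the bottom of the scale at 35 °C throughout. Prupe.1G502800 was listed at 0 on days 1, 3 and 7 at 35 °C and stood at 0.129 FPKM or less on the other days. At 25 °C it was listed at 0 on day 1, stood at 0.0350 and 0.0381 FPKM on days 2 and 3 and at 0.531, 1.80 and 3.76 FPKM on days 5, 6 and 7. Prupe.1G476500 was listed at 0 at 35 °C on every day but day 6, where it had 0.0428 FPKM, and reached 0.563, 1.60 and 2.41 FPKM late at 25 °C. These genes were singled out after their values were seen, because log2(FPKM + 1) compresses changes at such levels and an exact 0 can be a failed estimate.

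For the 14 lower genes with a departure at 35 °C alone, the late minus early change at 25 °C lay between -0.37 and 0.40. Levels on single days could still vary at 25 °C. Prupe.7G248600 ran there from 69.7 FPKM on day 2 to 173 FPKM on day 6. Prupe.6G070800 stood there at 28.3 FPKM on day 1 and 11.4 FPKM on day 7. Prupe.3G039000 had 11.6, 9.47 and 11.2 FPKM late at 35 °C, against 25.8, 20.6 and 33.2 FPKM at 25 °C, after early levels of 23.3, 23.95 and 18.01 FPKM at 35 °C and 32.8, 29.2 and 20.0 FPKM at 25 °C. Prupe.1G511800 had 41.2, 22.2 and 17.0 FPKM early and 14.4, 8.95 and 7.79 FPKM late at 35 °C, a lower value at each sampling. At 25 °C it had 40.9, 24.3 and 22.0 FPKM early and 21.0, 25.1 and 26.1 FPKM late. Days 1 and 2 were therefore nearly shared, and on day 3 the difference was already -0.36. On the late days the 25 °C level lay between 21.0 and 26.1 FPKM.

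In the class without a departure of 0.5, Prupe.5G069400 and Prupe.1G378600 led. Prupe.5G069400 had 4.88, 6.38 and 6.35 FPKM early and 7.55, 2.88 and 2.63 FPKM late at 35 °C, against 5.84, 8.12 and 7.10 FPKM early and 9.62, 11.8 and 6.92 FPKM late at 25 °C. Prupe.1G378600 had 56.5, 41.8 and 41.2 FPKM early and 32.7, 33.8 and 41.8 FPKM late at 35 °C. At 25 °C it had 69.0, 51.7 and 55.9 FPKM early and 77.4, 56.0 and 99.0 FPKM late. In both genes each late value at 25 °C exceeded the value of the same day at 35 °C, but late and early values overlapped at each temperature.

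The rule does not use the mean of both temperatures on a day as such, and the change of this mean over storage was tested. The mean is nevertheless built from the same columns as the rule. A departure at one temperature alone moves this mean too, so the test does not show that both temperatures changed. The mean was compared between days 5 to 7 and days 1 to 3 with limma across all 15435 filtered genes, with the day as the unit. P-values thus measure the spread between days, not between fruit. No gene passed a Benjamini-Hochberg adjusted p under 0.05 (0% of all genes, 0 members). The smallest limma adjusted p was 0.171 among the higher and 0.178 among the lower genes, in Prupe.1G372000 and Prupe.7G087400. The changes of the mean were -0.89 for Prupe.1G372000 (SE over days 0.17) and 2.17 for Prupe.7G087400 (SE 0.43). At an unadjusted p under 0.05, 2 of 43 higher genes and 8 of 47 lower genes were above their early level (1.98% of all genes), and 5 higher and 8 lower genes below it (8.53% of all). Both higher genes above it departed at 35 °C alone. Of the lower genes, 6 of the 8 above it departed at 25 °C alone and 6 of the 8 below it at 35 °C alone. Of the 5 higher genes below it, 4 had lower late levels at both temperatures. Over all genes 1621 reached that level. Since the choice of members bears on the departures at each temperature, nothing is read from the gaps to these shares. The median change of this mean was -0.16 in the higher genes, 0.04 in the lower genes and -0.02 over all genes.

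The count of calls depended on days 1 and 3. Without day 1, limma called 9 genes, 1 upwards, and 0 members. Without day 3 it called 218 genes, 24 upwards, and 2 members, both higher at 35 °C with lower late levels at both temperatures. These 2 genes averaged under 5 FPKM late at each temperature and were singled out after their values were seen. Prupe.3G060500 then had a change of the mean of -2.63 with an SE over days of 0.40, at a limma adjusted p = 0.0402. Prupe.2G222600 had one of -2.77 with an SE of 0.44, at a limma adjusted p = 0.0432. Prupe.3G060500 stood at 35.6, 15.4, 5.36, 5.75, 3.00 and 4.15 FPKM from day 1 to day 7 at 35 °C, and at 32.2, 13.6, 3.70, 3.16, 1.95 and 0.608 FPKM at 25 °C. At both temperatures the levels on day 3 were already close to those of day 5.

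The levels of the 91 genes were ordinary for this tissue. The mean over 12 columns had a median of 10.4 FPKM in the higher genes and 9.40 FPKM in the lower genes, against 9.69 FPKM over all filtered genes. The range was 0.888 to 3156 FPKM in the higher and 0.316 to 346 FPKM in the lower genes. A mean under 5 FPKM was found in 9 higher and 17 lower genes, and one of at least 100 FPKM in 4 higher and 3 lower genes. Prupe.7G218600 alone missed the filter, reaching 1.97 FPKM on day 7 at 25 °C and at most 0.901 FPKM in any other column. In 7 higher and 7 lower genes the value is a sum over more than 1 deposited row.

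By the usual naming of peach gene models, which no file used here states, the digit before the G in an identifier is the number of the scaffold on which the gene lies. The 2 directions were spread unequally over these numbers. Of the 43 higher genes, 14 (32.6%) had identifiers of scaffold 8, which holds 9.82% of all filtered genes and 9.97% of those that met the early part of the rule. Of the 48 lower genes, 20 (41.7%) were of scaffold 1, with 23.1% of all filtered genes, and 9 (18.8%) of scaffold 5, with 9.54%. These counts include copies. With identical values counted once, scaffold 1 held 41.3% of the lower genes. The genes of scaffold 5 include the identical pair Prupe.5G136100 and Prupe.5G136300 and the parallel neighbours Prupe.5G021200 and Prupe.5G021300, so they stand for fewer separate measurements. Only 3 lower genes were of scaffold 8, and 4 higher genes were of scaffold 1. The 820 other late higher genes had 9.15% on scaffold 8, and the 724 other late lower genes had 26.2% on scaffold 1. The median late difference of all filtered genes was 0.06 on scaffold 8 and 0.05 on scaffold 1, beside a range of 0.05 to 0.09 over the 8 scaffolds.

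This spread was seen after the values were known and was not tested. The 14 genes of scaffold 8 included 3 of the 4 largest late differences among genes of at least 5 FPKM (Prupe.8G107600, Prupe.8G221000 and Prupe.8G096200), and their identifiers were scattered, with Prupe.8G096200 and Prupe.8G096400 as the only pair within 5 identifiers. Over the whole set, 5 pairs of members lay within 5 identifiers of each other, 2 of them with identical values. The share of higher genes on scaffold 8 ran over the alternatives from 15.4% with an early limit of 0.75 to 53.8% of the 13 genes with a late limit of 1.0, and was 15.6% without day 5. That of lower genes on scaffold 1 ran from 28.2% with an early limit of 0.75 to 66.7% of the 6 genes with an early limit of 0.25.

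**Figure D5:**
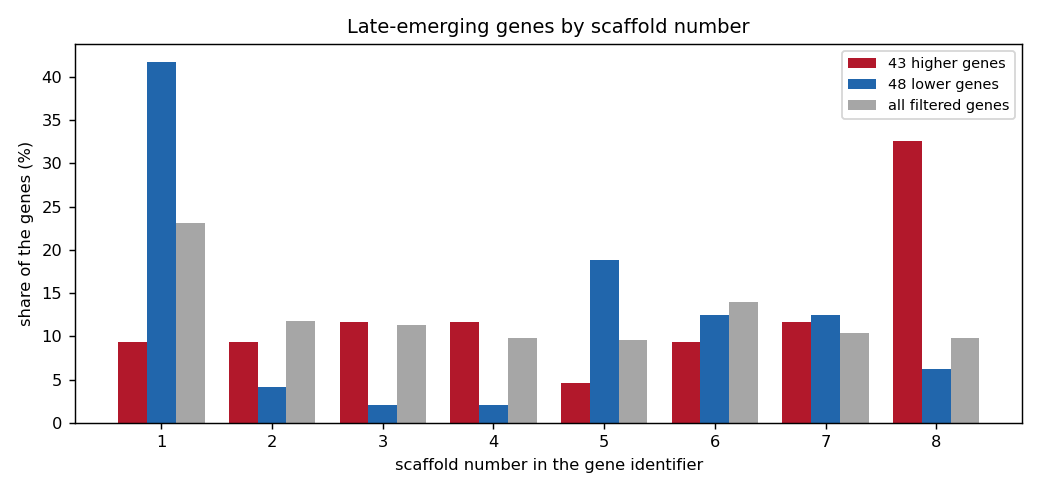
Share of genes, in percent, by the scaffold number in the identifier, for the 43 higher genes, the 48 lower genes and all 15435 filtered genes. The bar of the higher genes reaches 32.6% at scaffold 8 and that of the lower genes 41.7% at scaffold 1, against 9.82% and 23.1% of all filtered genes.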

How the data were processed

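The authors deposited FPKM values in 2 tables, one per temperature, each with 1 column for each of the 6 days and, per the file headers, no replicate number. The sources used here give neither the genome build and annotation, nor how the 2 libraries of a group were combined, nor any scaling of the columns. The submitters' processing notes name, without roles, Cufflinks 2.1.1, TopHat2 2.0.10 with Bowtie2 2.1.0, SAMtools 0.1.18 and FastQC 0.10.1. Read depth is unknown: transcript lengths are not given here and reads were not recovered from low values, so no counting interval is given. Column sums ranged from 651850 to 882184 FPKM.

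The 29300 rows were summed to 26873 identifiers, 2034 of which had more than 1 row, and log2(FPKM + 1) was taken without rescaling. The temperatures lie in separate tables, and whether these were normalized together is not known, so a difference between tables cannot be told apart from one between temperatures. The test was lmFit and a trended eBayes of limma 3.58.1, under R 4.3.3, and was tested on simulated data. Tables were handled with pandas 2.3.3. The members, classes and tests were chosen with earlier results of these data known. Named genes, among those averaging 5 FPKM or more on the late days at whichever temperature was higher, are the 4 with the largest late difference in each direction, the 2 largest of each class of 5 or more, the most abundant and the 2 with the smallest p. Genes beside the limit are named at any level; copies, neighbours, genes of opposite course and others were named after their values were seen. Gene lists and cell type markers rest on product descriptions, so none could be used.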

Additional observations from a re-analysis of the deposited data

Results flagged for a closer look

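In 7 of the 91 genes all late values lay on one side of all early values at 35 °C and on the opposite side at 25 °C. This held for 4 higher genes (0.0648% of all filtered genes had the same course) and 3 lower genes (0.188%). The difference between the courses was not tested, since the genes were chosen by it. Prupe.8G221000, with a late difference of 1.29, and Prupe.8G248100, with 1.10, are described above. Prupe.2G295100 had late values of 8.66, 10.9 and 10.8 FPKM at 35 °C and 4.99, 5.30 and 4.55 FPKM at 25 °C, a late difference of 0.90. Prupe.3G268700 had 3.05, 3.77 and 4.02 FPKM at 35 °C and 0.928, 1.96 and 1.62 FPKM at 25 °C, also a difference of 0.90. At 25 °C the lowest early values were 5.63 FPKM for Prupe.2G295100 and 2.19 FPKM for Prupe.3G268700, close above the highest late ones.

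The other 3 were lower at 35 °C. Prupe.5G075200 had late values of 7.45, 5.47 and 6.73 FPKM at 35 °C and 15.2, 13.3 and 16.8 FPKM at 25 °C, a late difference of -1.10. At 25 °C its highest early value, 13.0 FPKM, was barely under the lowest late one. Prupe.5G036800 had 10.1, 6.96 and 11.6 FPKM at 35 °C and 24.2, 14.7 and 19.2 FPKM at 25 °C, a difference of -0.95. Its early values were 13.9, 12.3 and 13.1 FPKM at 35 °C and 12.4, 14.3 and 11.8 FPKM at 25 °C. Late and early values of Prupe.5G036800 were thus barely apart at both temperatures. Prupe.7G086200 had 0.634, 0.616 and 0.566 FPKM at 35 °C and 1.72, 1.87 and 2.77 FPKM at 25 °C, a difference of -0.94. Its early values at 35 °C were 0.658, 1.31 and 0.848 FPKM. Late and early values at 35 °C were thus barely apart, at levels near the bottom of the scale.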

How the results depend on the processing

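Membership depended on the limits and on single days; the causes were not tested beyond what fewer days or another limit do by construction. The 43 higher genes became 71 with a pseudocount of 0.1 (27 of them shared), 120 without day 2, 108 without day 3, 147 without day 5, 5 with an early limit of 0.25, 104 with 0.75 and 13 with a late limit of 1.0. With a pseudocount of 0.1 the 48 lower genes became 54, of which only 30 were shared. They became 31 with a mean of at least 5 FPKM, 89 without day 2, 167 without day 3, 85 without day 5, 6 with an early limit of 0.25, 131 with 0.75 and 25 with a late limit of 1.0. Their median late difference was -1.25 with the limit of 0.25. Median-of-ratios scaling gave 31 higher genes, 24 of them shared, and 52 lower, 40 shared. Quantile normalization gave 35 higher, 16 shared, and 57 lower, 33 shared. The share of higher genes departing at 25 °C alone, 46.5%, was 28.6% with quantile normalization, 30.8% without day 2 and 28.7% without day 3. For lower genes it was 47.9%, and 32.6% without day 2, 32.3% without day 3 and 83.3% with the early limit of 0.25. The limma test called 2 members without day 3 and 0 in each other alternative, including no filter, which was added after the data were seen. Over the 7 alternatives that can move it, the late difference of the 18 named genes stayed within the spread of the late days in 125 of 126 values, and 0 turned sign. That of Prupe.8G221000 was 1.49 with a pseudocount of 0.1. Without day 5, 6 or 7 this outcome was fixed in advance. The rule asks for one sign on each late day, and a mean of the remaining late days cannot leave their spread. Nothing is read from the tally for those alternatives. A pseudocount does not alter which temperature is higher on a day, so another pseudocount could not turn a sign either. Only median-of-ratios scaling and quantile normalization could have turned one. No paired analysis was possible because each group has a single column without a replicate number, and no replicate could be left out. What read depth limits cannot be said, since it is unknown.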
